A study of Homo sapiens with 5 samples.

Results

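Small cell lung cancer (SCLC) is sorted into subtypes by the transcription factor that dominates, and the 9 genes described here, NEUROD1, POU2F3, INSM1, ISL1, NKX2-1, SOX2, LMX1A, ONECUT2 and PROX1, are lineage or subtype factors of this tumor or of the neuroendocrine and neural cells it resembles. They were taken by symbol from the authors' gene table and joined by gene identifier to the counts, where they are 9 of 64837 entries. They were selected on their role and on their fold changes between the groups of this same experiment, so that difference is described for these 9 genes and not tested. In this text ± gives the SD over the 3 control or the 2 co-cultured libraries of a group, and SE is the standard error of a log2 fold change, which is positive where co-cultured cells were higher. The libraries came from NCI-H209, an established human SCLC cell line, with 3 control libraries labelled untreated and 2 from cells kept for 24 h in a Transwell chamber with human brain microvascular endothelial cells (HBMECs), which sat above the tumor cells on a porous membrane and shared their medium. The labels name no engineered allele or drug in either group, and both came from this 1 cell line. The sources used here do not say whether the control wells held an empty insert or whether the libraries of a group came from separate cultures, so the p-values given for other genes measure the spread between these libraries, which may be technical.

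Subtype factors act as master regulators. NEUROD1 is a basic helix-loop-helix (bHLH) protein that binds E-box sequences as a partner of E proteins and drives neuronal genes, and POU2F3 is the POU-domain factor of tuft cells, the chemosensory cells that the non-neuroendocrine tuft-like subtype resembles. INSM1 is a zinc finger repressor shared by most neuroendocrine tumors, NKX2-1 is the homeodomain factor of lung and thyroid, SOX2 is an HMG-box factor of progenitor cells, and ISL1 and LMX1A are LIM-homeodomain factors of motor, sensory and dopaminergic neurons. ONECUT2 and PROX1 are a cut-homeodomain and a prospero homeodomain factor of liver, pancreas and nervous tissue.

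Promoter stretches are shown for 4 members, to show what lies in front of these genes. RefSeq held an entry for 6 of the 9 members, and the 4 shown are those with at least 100 bases of its 250-base window in front of the gene as annotated by GENCODE. The ISL1 stretch is shorter, at 193 bases, because its RefSeq start lies inside the annotated gene. Each stretch runs 5′ to 3′ on the strand of the gene (GRCh38.p14) and ends before the first annotated base. Capitals mark matches, found on either strand, to 6 short motifs. The E-box of bHLH factors was searched as CAGCTG and as CAGATG, and its other forms were not searched. The core of the hypoxia response element was searched as ACGTG alone. The homeodomain palindrome was TAATTA, the core bound by SOX proteins was ACAAT, and the octamer of POU factors was ATGCAAAT.
ISL1, chr5:51383198-51383390, plus strand: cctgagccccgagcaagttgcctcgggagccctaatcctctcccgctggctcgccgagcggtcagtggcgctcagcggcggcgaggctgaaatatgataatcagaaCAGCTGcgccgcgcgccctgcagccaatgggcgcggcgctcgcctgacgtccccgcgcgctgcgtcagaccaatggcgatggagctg
LMX1A, chr1:165356716-165356965, minus strand: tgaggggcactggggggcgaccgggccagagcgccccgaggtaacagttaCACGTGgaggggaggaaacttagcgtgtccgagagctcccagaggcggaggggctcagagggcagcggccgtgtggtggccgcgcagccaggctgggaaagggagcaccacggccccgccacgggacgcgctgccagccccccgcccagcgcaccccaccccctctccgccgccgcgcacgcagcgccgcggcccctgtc
SOX2, chr3:181711675-181711923, plus strand: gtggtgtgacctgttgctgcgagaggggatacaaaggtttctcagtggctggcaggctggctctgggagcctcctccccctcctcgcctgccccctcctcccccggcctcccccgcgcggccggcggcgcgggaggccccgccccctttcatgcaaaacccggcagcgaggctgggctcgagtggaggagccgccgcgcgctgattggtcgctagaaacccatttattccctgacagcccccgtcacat
ONECUT2, chr18:57435124-57435373, plus strand: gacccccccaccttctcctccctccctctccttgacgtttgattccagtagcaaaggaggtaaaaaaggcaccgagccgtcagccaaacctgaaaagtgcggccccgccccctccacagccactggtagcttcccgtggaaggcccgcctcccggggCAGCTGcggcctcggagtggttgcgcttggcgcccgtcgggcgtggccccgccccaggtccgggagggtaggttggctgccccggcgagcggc

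One CAGCTG was found in the ISL1 stretch, a sequence that 10.9% of all promoter entries hold over the same 193 bases, and one in the ONECUT2 stretch, against 14.0% over 250 bases. In the LMX1A stretch ACGTG was matched once on each strand, and the 2 matches overlap in a single palindrome. This palindrome, CACGTG, is also a form of the E-box, though not one of those searched. ACGTG is held by 18.5% of the promoter entries over 250 bases. None of the 6 motifs was matched in the SOX2 stretch. CAGATG, the homeodomain palindrome, the SOX core and the octamer had no match in any of the 4 stretches. They are held by 12.2%, 4.35%, 24.6% and 1.63% of promoter entries over 250 bases. These are letters found in a window, not sites shown to be bound.

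Library totals on the counted strand ran from 15457071 to 19157348 counts, and that strand held 92.3% to 93.1% of all reads at genes. The share of unmapped reads was 8.13% to 8.48% in control but 16.8% and 15.9% after co-culture. On the first principal component, with 64.7% of the variance, the groups lay apart. On the second component, with 18.3%, control replicate 1 lay apart from the other libraries, so values without it are given for some members. For most other genes they are not given, and they can differ. Among 18 endothelial markers, of which 9 passed the filter, PECAM1 had 3 to 18 counts per library and MMRN1 and PLVAP had 0 throughout. Others were counted more often in both groups, with 75 to 159 counts per library for VWF and 126 to 186 for ICAM2. The summed level of the 18 was 18.7 to 27.4 CPM (counts scaled to a library of 1000000) in control against 23.0 and 24.2 CPM after co-culture. ESAM and ICAM2 rose, by 2.14 and 0.45 on the log2 scale (edgeR adjusted p = 0.00666 and 0.0367). The call of ESAM was lost without co-cultured replicate 1 (edgeR adjusted p = 0.0968) and that of ICAM2 in 9 of 12 alternatives, among them DESeq2 (adjusted p = 0.0680). Of the 9 tested, 5 had a positive and 4 a negative log2 fold change, with a median of 0.38, and KDR and TEK, at -1.30 and -1.85, did not pass the test (edgeR adjusted p = 0.289 and 0.228). Among 12 mesenchymal markers, of which 11 were tested, the summed level was 21.6 to 33.5 CPM in control against 42.7 and 42.2 CPM after co-culture. Without THY1 and RGS5, left out because they were called higher, it was 13.7, 14.0 and 3.29 CPM in control against 4.65 and 6.66 CPM. The endothelial sum without ESAM and ICAM2, left out likewise, was 19.5, 13.6 and 10.3 CPM in control against 12.1 and 12.9 CPM. These genes were removed by their outcome, so neither sum is read as a fall. Over the 11 mesenchymal markers tested, 4 log2 fold changes were positive and 7 negative, with a median of -1.19. THY1 and RGS5 rose by 1.49 and 0.61 on the log2 scale (edgeR adjusted p = 0.000158 and 0.0217) and POSTN fell (edgeR adjusted p = 0.0205). POSTN went from 11, 15 and 3 counts to 0 in both co-cultured libraries. Its control mean was at least 2.64-fold above a floor of 3 counts per library, and control replicate 3 was itself at that floor. The calls of RGS5 and POSTN were lost without co-cultured replicate 1 (edgeR adjusted p = 0.0763 and 0.125) and without co-cultured replicate 2 (edgeR adjusted p = 0.168 and 0.101). The control libraries differed among themselves in these markers. The counts of DCN were 27, 39 and 0 in control against 3 and 1, and PDGFRB, LUM and TEK likewise had 19 to 34 counts in control replicates 1 and 2 and 0 in control replicate 3, with at most 6 after co-culture. Without control replicate 3 the log2 fold changes of LMX1A, SOX2 and ISL1 were 3.05, 1.31 and -1.01. The part of such cells in the results was not tested, and in bulk RNA fewer cells of a type cannot be told apart from less RNA per cell.

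All 9 members passed the filter on low counts. The levels of the factors per length of exon (CPM per kb of exon, RPKM) spanned a 1189-fold range in control cells. INSM1 was at the top with 205 ± 25.4 RPKM, above 99.4% of the 13697 protein-coding genes tested. PROX1 followed with 59.0 ± 8.33 RPKM and ISL1 with 47.6 ± 6.21 RPKM, and the ranges of these 2 overlapped. NKX2-1 had 26.2 ± 0.932 RPKM and ONECUT2 12.7 ± 1.98 RPKM, each clear of its neighbours in the order. The other 4 genes were near the bottom of the distribution. SOX2 had 0.739 ± 0.426 RPKM, LMX1A 0.629 ± 0.0775 RPKM and NEUROD1 0.477 ± 0.135 RPKM, whose ranges overlapped from each to the next, and POU2F3 was lowest with 0.172 ± 0.0415 RPKM, above 4.60% of protein-coding genes. By these counts the line did not carry the NEUROD1 or the POU2F3 subtype factor at more than a low level. YAP1, a transcriptional coactivator of the Hippo pathway, had 25 to 45 counts per library. ATOH1, a bHLH factor of sensory cells, had 1, 2 and 0 counts in control against 0 in each co-cultured library, which is at or under the floor of 3 counts (0.157 to 0.194 CPM before TMM scaling).

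In co-cultured cells the order differed at 2 places. NKX2-1, at 29.9 ± 0.202 RPKM, stood above ISL1, at 22.5 ± 1.99 RPKM, and LMX1A, at 4.88 ± 0.0755 RPKM, stood above SOX2, at 2.07 ± 0.178 RPKM. ISL1 and ONECUT2 (20.2 ± 2.69 RPKM) overlapped, and every other neighbour in the order was apart.

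**Figure D1:**
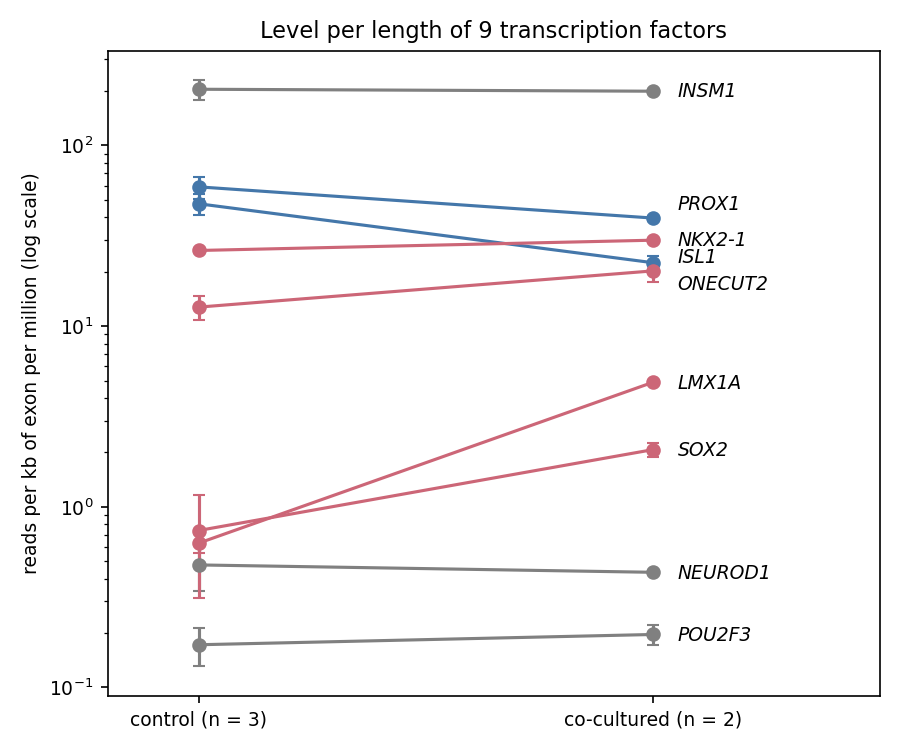
Level per length of the 9 factors in control (mean of 3 libraries) and co-cultured cells (mean of 2) on a log axis, with SD bars. Red lines are factors whose co-cultured libraries all lay above control, blue lines those below, and gray lines those whose groups overlapped. INSM1 is at the top in both groups, and the line of LMX1A, from 0.629 to 4.88 RPKM, crosses that of SOX2.

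Of the 9 factors, 2 had a log2 fold change above 1 (LMX1A and SOX2) and 1 below -1 (ISL1), where 5.63% of the 20360 genes tested were above 1, 5.87% below -1 and 11.5% either. The co-cultured libraries lay wholly above control for 4 members and wholly below for 2, where 29.4% and 30.0% of all genes tested did so (59.4% in all). Since the members were picked with these values known, nothing is read from the shares. The median log2 fold change was 0.19 over the 9 members and -0.03 over all genes tested.

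Among the neuroendocrine factors, INSM1 stood at 636, 498 and 603 CPM in the control libraries against 562 and 568 CPM after co-culture. Both co-cultured values lay inside the control range. The log2 fold change was -0.04 (SE 0.11), and its sign turned in 3 of 12 alternative settings, among them the fit without control replicate 1. NEUROD1 stood at 1.06, 1.88 and 1.79 CPM in the control libraries against 1.42 and 1.45 CPM after co-culture, from 20 to 35 counts per library. Here too the groups overlapped, control replicate 1 being the lowest library, and the log2 fold change of -0.13 (SE 0.33) was 0.01 without control replicate 2 and -0.35 without control replicate 1. Of the NEUROD1 exon sequence, 7.13% is shared with CERKL, a gene on the same strand, and reads there could not be assigned to either gene.

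POU2F3 stood at 1.12, 0.885 and 1.43 CPM in the control libraries against 1.42 and 1.19 CPM after co-culture, which overlapped. Its log2 fold change was 0.19 (SE 0.33), from 16 to 28 counts per library, and a difference of this size was not detectable at this depth. Reads on its opposite strand were 0 in all 5 libraries.

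NKX2-1 stood at 82.3, 86.3 and 80.5 CPM in the control libraries against 95.1 and 94.2 CPM after co-culture. Both co-cultured libraries were above the 3 control libraries, by 1.14-fold on average. The log2 fold change was 0.19 (SE 0.07). It was 0.11 under upper-quartile normalization, where the median of all genes moved to -0.11, and 0.25 with reads counted without regard to strand.

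SOX2 stood at 3.08, 1.11 and 1.38 CPM in the control libraries against 5.52 and 4.89 CPM after co-culture, from 58, 20, 27, 101 and 74 counts. The co-cultured libraries lay above all control libraries, of which replicate 1 was the highest. The means were 1.86 ± 1.07 CPM and 5.20 ± 0.447 CPM, a ratio of 2.80, and the log2 fold change of 1.48 (SE 0.37) was 2.06 without control replicate 1 and 1.23 without control replicate 2. Reads on the opposite strand of SOX2 numbered 8, 3 and 4 in control and 1 in each co-cultured library. They were 12.5% of those at the gene in control and 1.13% in co-cultured libraries, a share that also falls as SOX2 counts rise.

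The LIM-homeodomain factors differed in opposite directions. LMX1A stood at 2.61, 2.32 and 2.97 CPM in the control libraries against 20.7 and 20.2 CPM after co-culture, the widest difference among the 9. The means were 2.63 ± 0.325 CPM and 20.4 ± 0.316 CPM, a ratio of 7.76, and the log2 fold change of 2.95 (SE 0.15) ran from 2.87 to 3.05 over the 12 alternatives. No read was counted on the opposite strand of the gene in any of the 5 libraries. ISL1 stood at 117, 144 and 151 CPM in the control libraries against 60.7 and 68.8 CPM after co-culture. Its co-cultured libraries were below all control libraries, with a mean 2.12-fold lower, and the log2 fold change was -1.08 (SE 0.12), or -0.99 without co-cultured replicate 1 and -1.19 without control replicate 1.

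ONECUT2 stood at 174, 238 and 208.9 CPM in the control libraries against 359 and 297 CPM after co-culture. The co-cultured libraries were above control, with a ratio of means of 1.59 and a log2 fold change of 0.67 (SE 0.13), with a lowest value of 0.53 without co-cultured replicate 1 and a highest of 0.80 without co-cultured replicate 2. PROX1 stood at 609.6, 466 and 506 CPM in the control libraries against 346 and 362 CPM after co-culture. The co-cultured libraries were below control, with a mean 1.49-fold lower and a log2 fold change of -0.57 (SE 0.12), or -0.45 without control replicate 1.

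**Figure D2:**
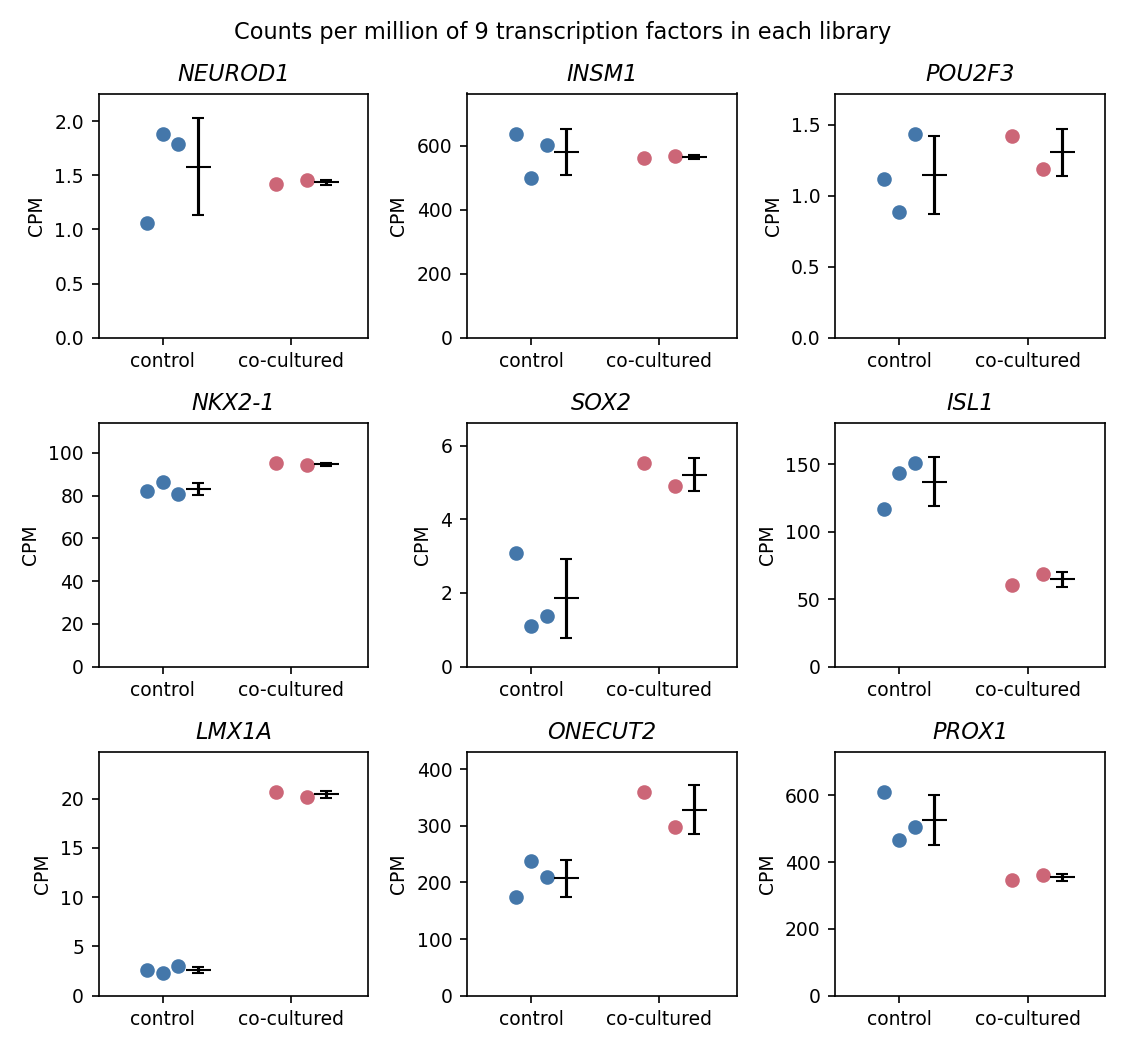
CPM of each factor (vertical axis from 0, own scale per panel) in 3 control (blue) and 2 co-cultured libraries (red), with the mean and SD in black beside the points. The groups overlap for NEUROD1, INSM1 and POU2F3, and LMX1A stands at 20.7 and 20.2 CPM against at most 2.97 CPM in control.

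**Figure D3:**
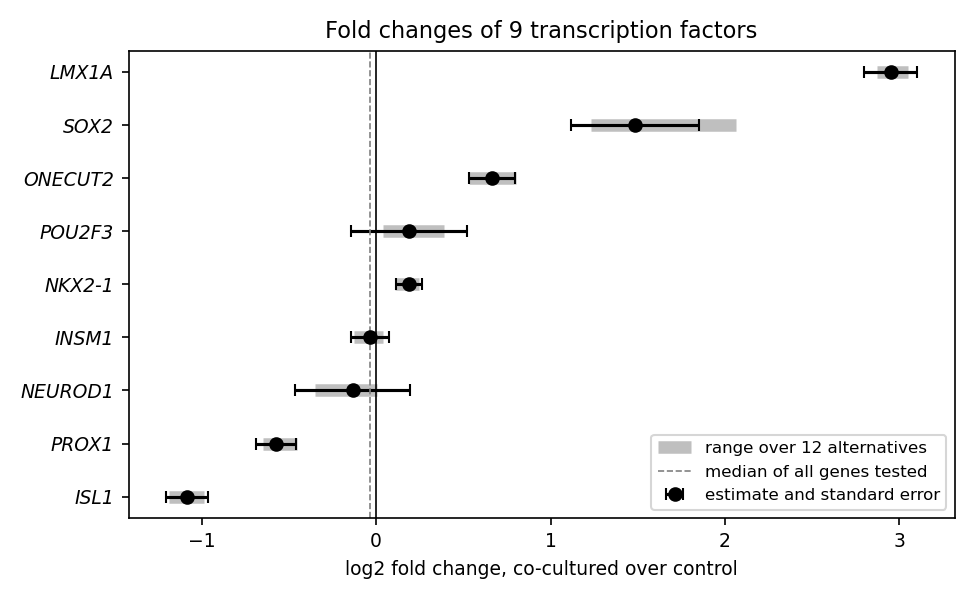
Log2 ratio of the groups (co-cultured to control, horizontal axis) for each factor with its standard error (black) and the range over 12 alternative settings (gray bar), with the median of all genes tested as a dashed line at -0.03. SOX2 has the widest gray bar, from 1.23 to 2.06, and ISL1, PROX1, ONECUT2, NKX2-1, SOX2 and LMX1A keep their sign throughout, as does POU2F3.

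The loci of several members also give rise to other transcripts, which are not members themselves and were tested where they passed the filter. CERKL is also in the list of NEUROD1-linked genes given below, which was chosen with earlier results of these data known. Its fall is therefore counted in both places. By position on GRCh38 (GENCODE release 29), 15 annotated transcripts overlapped a member or started within 5000 bases of its start. Of these, 8 passed the filter, 6 fell and 0 rose at an adjusted p under 0.05 by edgeR, where 15.0% of all genes tested fell and 18.4% rose. At an unadjusted p under 0.05, and with DESeq2, the number that rose was 0 as well. Only CERKL of the 8 is classed as protein-coding, and 25.1% of protein-coding genes rose and 15.9% fell, so the shares over all genes are an unlike base. The 6 falls include transcripts at ISL1 and PROX1, members picked with their own falls known. Nothing is read from the shares.

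SOX2, a gene of 1 exon at chr3:181711924-181714436, lies in an intron of SOX2-OT, a long noncoding RNA on the same strand with which it shares 0 exonic bases. SOX2-OT was counted 195, 250 and 268 times in control against 95 and 78 times after co-culture. It fell from 12.6 ± 1.97 CPM to 5.17 ± 0.0282 CPM, a log2 fold change of -1.29 (SE 0.18, edgeR adjusted p = 0.000817). The host transcript had its lower values in the libraries where SOX2 had its higher ones. The ratio of SOX2 to SOX2-OT counts was 0.297, 0.0800 and 0.101 in control against 1.06 and 0.949 after co-culture. This ratio restates the differences given above for both transcripts, and SOX2 was chosen with its own rise known. Unspliced SOX2-OT reads that cross SOX2 would be counted for SOX2, and their part was not tested.

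At ISL1 (chr5:51383391-51394738), the antisense transcript AC010478.1 starts 59 bases upstream and runs the other way, so its start lies inside the ISL1 stretch printed above, which from there outward is part of AC010478.1. AC010478.1 was counted 848, 1001 and 1191 times in control against 417 and 322 times after co-culture. It fell from 53.8 ± 8.06 CPM to 22.0 ± 1.08 CPM, a log2 fold change of -1.29 (SE 0.13, edgeR adjusted p = 0.000208), beside -1.08 for ISL1. Counts of AC010478.1 per count of ISL1 were 0.386, 0.385 and 0.404 in control against 0.376 and 0.309 after co-culture.

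PROX1 (chr1:213983181-214041502) is overlapped by antisense transcripts from its 5′ part. PROX1-AS1 fell from 63.0 ± 9.66 CPM to 27.5 ± 0.560 CPM (log2 fold change -1.20, SE 0.13, edgeR adjusted p = 0.000269) and AC011700.1 from 19.2 ± 0.980 CPM to 6.91 ± 0.0348 CPM (log2 fold change -1.47, SE 0.13, edgeR adjusted p = 9.2e-05). The log2 fold change of PROX1 itself was -0.57. Per count of PROX1, AC011700.1 had 0.0324, 0.0387 and 0.0389 counts in control against 0.0199 and 0.0191 after co-culture. PROX1-AS1 per PROX1 was 0.0855, 0.142 and 0.140 against 0.0806 and 0.0748. The difference between the fold changes of the antisense transcripts and of PROX1 was not tested.

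Upstream of INSM1 (chr20:20368121-20370949), a transcript on the same strand that the annotation marks as still to be checked by experiment, AL161658.1, starts 4430 bases away and fell from 39.0 ± 7.18 CPM to 23.2 ± 3.22 CPM (log2 fold change -0.75, SE 0.16, edgeR adjusted p = 0.00638). Without co-cultured replicate 1 the call was lost (edgeR adjusted p = 0.0915). CERKL, which encodes a ceramide kinase-like protein and overlaps NEUROD1 (chr2:181673088-181680876), was counted 21, 56 and 50 times in control against 8 and 16 times after co-culture (log2 fold change -1.62, SE 0.52, edgeR adjusted p = 0.0398). That call was lost without co-cultured replicate 1, where the adjusted p was 0.293, and in 4 other settings. Without co-cultured replicate 2 the log2 fold change of CERKL was -2.34 (edgeR adjusted p = 0.0677). NKX2-1-AS1 and AL132857.2, which overlap NKX2-1 (chr14:36516392-36521149) on the other strand, had log2 fold changes of 0.16 and 0.23 and did not pass the test (edgeR adjusted p = 0.728 and 0.669). The antisense entries at LMX1A (chr1:165201867-165356715) had 0 counts on their own strand in every library.

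**Figure D4:**
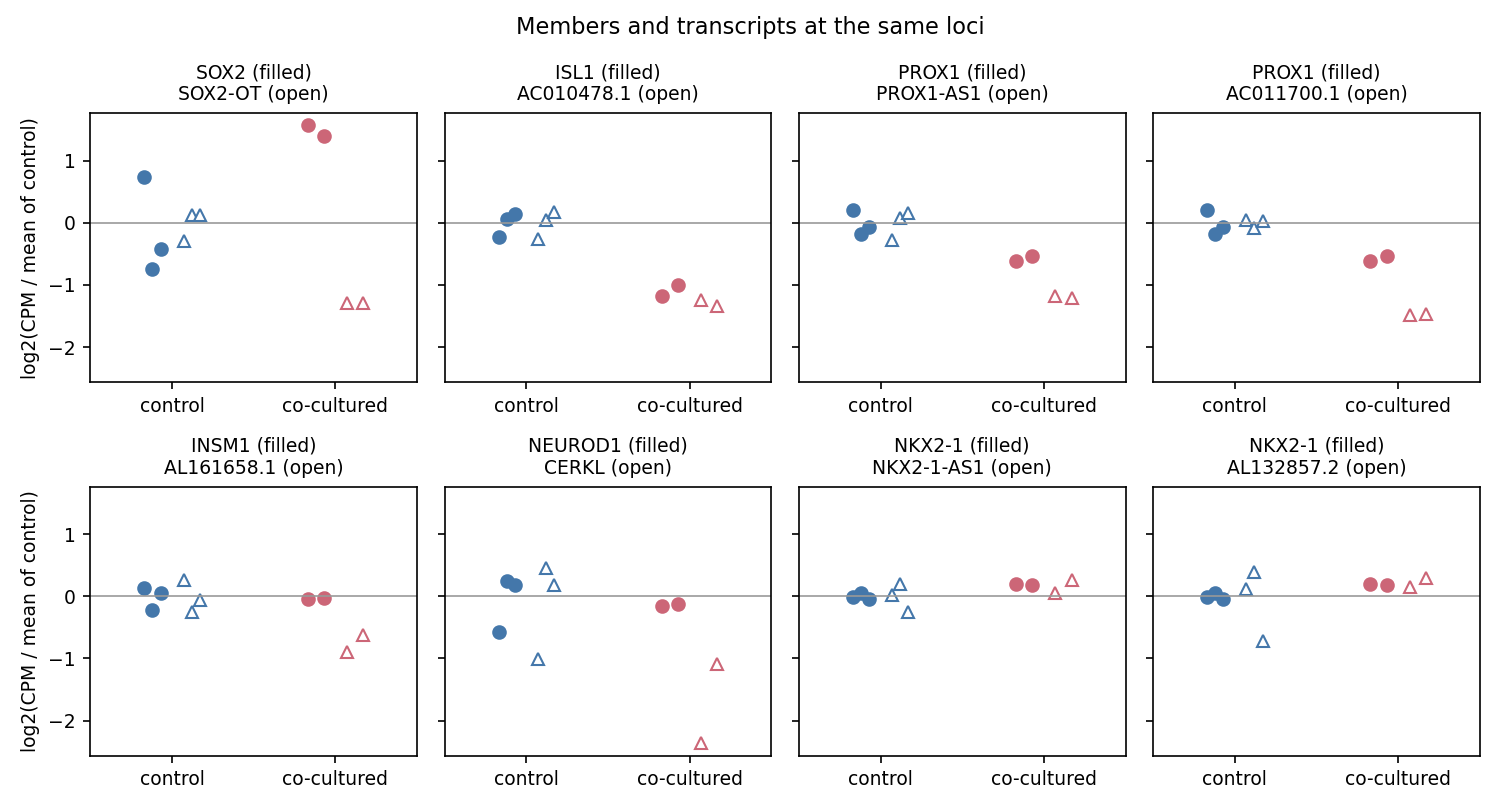
Log2 of CPM over the control mean, by library, for a member (filled circles) and a transcript at its locus (open triangles) in control (blue) and co-cultured libraries (red). In the SOX2 panel the circles and triangles part in co-cultured libraries, and in the ISL1 panel they lie together near -1.

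The closest relatives of the members were tested next. Of 23 relatives, 16 passed the filter, 2 rose and 4 fell at an adjusted p under 0.05, which is 37.5%, where 41.0% of all protein-coding genes tested passed, 25.1% higher and 15.9% lower. Their median log2 fold change was 0.04, against 0.06 for protein-coding genes. In the NEUROD1 family, NEUROD4, a bHLH factor of neurons, rose from 2.08 ± 0.965 CPM to 7.30 ± 2.66 CPM, a log2 fold change of 1.81 (SE 0.35, edgeR adjusted p = 0.00441). Without co-cultured replicate 1 the adjusted p was 0.0814. NEUROG1 and NEUROG2, bHLH factors that act early in neurogenesis, fell by 0.98 and 0.69 on the log2 scale (edgeR adjusted p = 0.00414 and 0.0443). The call of NEUROG2 was lost in 7 of 12 alternatives, with an edgeR adjusted p of 0.110 without co-cultured replicate 1 and 0.264 without co-cultured replicate 2. NEUROD2 had a log2 fold change of -0.29 (edgeR adjusted p = 0.590).

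SOX1, the close relative of SOX2, was expressed far above it at 292 ± 17.0 CPM in control and fell to 207 ± 14.2 CPM, a log2 fold change of -0.49 (SE 0.09, edgeR adjusted p = 0.00280). Without co-cultured replicate 1 the adjusted p was 0.0624. SOX21, which had a value of 0.37, did not pass (edgeR adjusted p = 0.170), and SOX3 had 0 counts in every library. Of the relatives of NKX2-1, NKX2-2, a homeodomain factor of the ventral neural tube and of endocrine cells, fell from 33.6 ± 2.11 CPM to 24.5 ± 0.860 CPM (log2 fold change -0.46, edgeR adjusted p = 0.00756, or 0.101 without co-cultured replicate 1 and 0.0598 without co-cultured replicate 2). NKX2-4, NKX2-5 and NKX2-8 had log2 fold changes of -0.24, 0.01 and 0.90 and did not pass.

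ISL2, the relative of ISL1, was counted 19, 24 and 22 times in control against 33 and 38 times after co-culture, a log2 fold change of 0.89 (SE 0.29, edgeR adjusted p = 0.0443). Its call was also lost in 7 alternatives, with an adjusted p of 0.117 by DESeq2 and 0.297 without co-cultured replicate 2. LMX1B, the relative of LMX1A, had 6.02 ± 0.694 CPM and 6.33 ± 0.676 CPM, a log2 fold change of 0.07 (SE 0.18, edgeR adjusted p = 0.795). ONECUT1, INSM2, POU2F1 and POU2F2 did not pass, with log2 fold changes of 0.24, 0.73, 0.19 and -0.16. PROX2 and ONECUT3 had at most 3 counts in any library.

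In the other lineage regulators of SCLC, 11 of 22 tested rose and 4 fell, with a median log2 fold change of 0.27. Beside this list and those below, 25.1% of protein-coding genes tested rose and 15.9% fell, with a median log2 fold change of 0.06. YAP1 had a value of -0.02 (SE 0.31, edgeR adjusted p = 0.966). RUNX1T1, a corepressor, and POU3F2, a neural POU factor, rose by 0.75 and 0.52 on the log2 scale (edgeR adjusted p = 0.000238 and 0.00173). MYCL, the MYC family gene of neuroendocrine SCLC, fell from 534 ± 101 CPM to 225 ± 29.5 CPM (log2 fold change -1.25, edgeR adjusted p = 0.000477). HES6, a bHLH factor that acts with proneural factors, fell by 1.10 and ST18, a zinc finger factor, by 0.57 on the log2 scale (edgeR adjusted p = 0.000115 and 0.00120).

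Partners and inhibitors of the members moved in both directions, with 7 of 24 tested genes higher, 7 lower and a median log2 fold change of 0.04. ID1 and ID4, which bind E proteins and so keep bHLH factors from DNA, fell from 122 to 42.4 CPM and from 313 to 156 CPM (edgeR adjusted p = 1.8e-05 and 0.000177). LMO2 and LMO4, LIM-only proteins that compete for the cofactor of LIM-homeodomain factors, rose by 1.44 and 0.79 (edgeR adjusted p = 0.00299 and 0.000703). RCOR2, a subunit of the corepressor complex that contains the demethylase KDM1A, rose from 15.2 ± 1.96 CPM to 39.0 ± 6.98 CPM (log2 fold change 1.36, edgeR adjusted p = 0.000218). POU2AF1, a coactivator of POU2 factors in lymphocytes, fell from 83.1 ± 4.12 CPM to 38.4 ± 0.387 CPM (log2 fold change -1.11, edgeR adjusted p = 4.8e-05).

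The genes that the subtype factors are known for were counted in the same way. Of 30 neuroendocrine markers tested, 14 rose and 4 fell, with a median log2 fold change of 0.30. CALCB, a calcitonin gene-related peptide, KIF5C, a kinesin heavy chain, and SYT11, a synaptotagmin, rose by 1.94, 0.83 and 0.64 on the log2 scale (edgeR adjusted p = 0.000144, 0.000177 and 0.000325). PCSK2, a prohormone convertase, fell by 1.47, DDC, the enzyme that makes dopamine and serotonin, by 0.58, and DLL3, the inhibitory Notch ligand, by 0.35 (edgeR adjusted p = 2.7e-05, 0.0286 and 0.0248). The calls of DDC and DLL3 were lost without co-cultured replicate 1 (edgeR adjusted p = 0.240 and 0.187) and without co-cultured replicate 2 (edgeR adjusted p = 0.0721 and 0.124). CHGA, a defining marker, had at most 1 count in any library, while its relative CHGB had 1529 to 2060 counts. Reads that map to several places were not counted, and whether CHGA reads were lost in this way was not tested. Of 10 genes linked with NEUROD1 that were tested, 2 rose and 2 fell. Among the latter is CERKL, whose fall is the same as that given above with the transcripts at the members' loci. SSTR2, a somatostatin receptor, rose from 2.71 ± 0.699 CPM to 6.66 ± 1.01 CPM (log2 fold change 1.30, edgeR adjusted p = 0.00370), a value that turned to -0.42 (edgeR adjusted p = 0.140) with reads counted without regard to strand. Without co-cultured replicate 1 the adjusted p was 0.0621. LSAMP, a neural adhesion protein, rose by 0.78 (edgeR adjusted p = 0.0137) and HPCA, a calcium sensor, fell by 0.54 (edgeR adjusted p = 0.0444), and without co-cultured replicate 2 both calls were lost (edgeR adjusted p = 0.134 and 0.239), that of HPCA also without co-cultured replicate 1 (edgeR adjusted p = 0.165).

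Of 12 tuft cell genes tested, 4 rose and 4 fell, and 7 of 21 annotated had at most 3 counts in every library, among them ALOX5, BMX, HTR3E, GNAT3 and IL25, at 0 in all. PTGS1, a cyclooxygenase, rose from 7.57 ± 2.597 CPM to 28.6 ± 6.08 CPM (log2 fold change 1.92, edgeR adjusted p = 0.000610). CHAT, which makes acetylcholine, was counted 0, 3 and 2 times in control against 39 and 14 times after co-culture (edgeR adjusted p = 0.00254). Its co-cultured mean was at least 9.21-fold above a floor of 3 counts per control library. The call of CHAT was lost without co-cultured replicate 1. DCLK1, a kinase, rose by 0.50, while MYB, AVIL and KIT, a transcription factor, an actin-binding protein and a receptor kinase, fell by 1.14, 1.47 and 0.41 on the log2 scale (edgeR adjusted p = 0.00113, 0.000284, 0.00257 and 0.00867). With unstranded counts AVIL was at -0.77 (edgeR adjusted p = 0.00279). The call of KIT was lost without co-cultured replicate 1 (edgeR adjusted p = 0.0692) and without co-cultured replicate 2 (edgeR adjusted p = 0.106). Of 7 genes of the NKX2-1 lung programme tested, 2 rose and 0 fell by edgeR, with 1 lower at an unadjusted p under 0.05 (NAPSA, an aspartic protease, whose log2 fold change was -0.80) and 0 lower by DESeq2. SELENBP1, a selenium-binding protein, rose by 1.83 and LAMP3, a lysosomal membrane protein, by 0.50 (edgeR adjusted p = 0.000455 and 0.00119). The surfactant gene SFTPC had 0 counts in every library and SFTPB 0 in all but co-cultured replicate 2, which had 2.

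Over all 7 lists, 121 genes outside the members were tested, and 42 rose and 25 fell, 55.4% in all, where 33.4% of all genes and 41.0% of protein-coding genes passed. Without co-cultured replicate 1 the 67 calls were 36, and without co-cultured replicate 2 they were 43. By list, the share called with all libraries was 28.6% for NKX2-1-linked genes, 37.5% for relatives and 40.0% for NEUROD1-linked genes. It was 58.3% for partners, 60.0% for neuroendocrine markers, 66.7% for tuft cell genes and 68.2% for other regulators. The lists were not matched to other genes by level, so these shares are counts and not a statement about the lists.

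**Figure D5:**
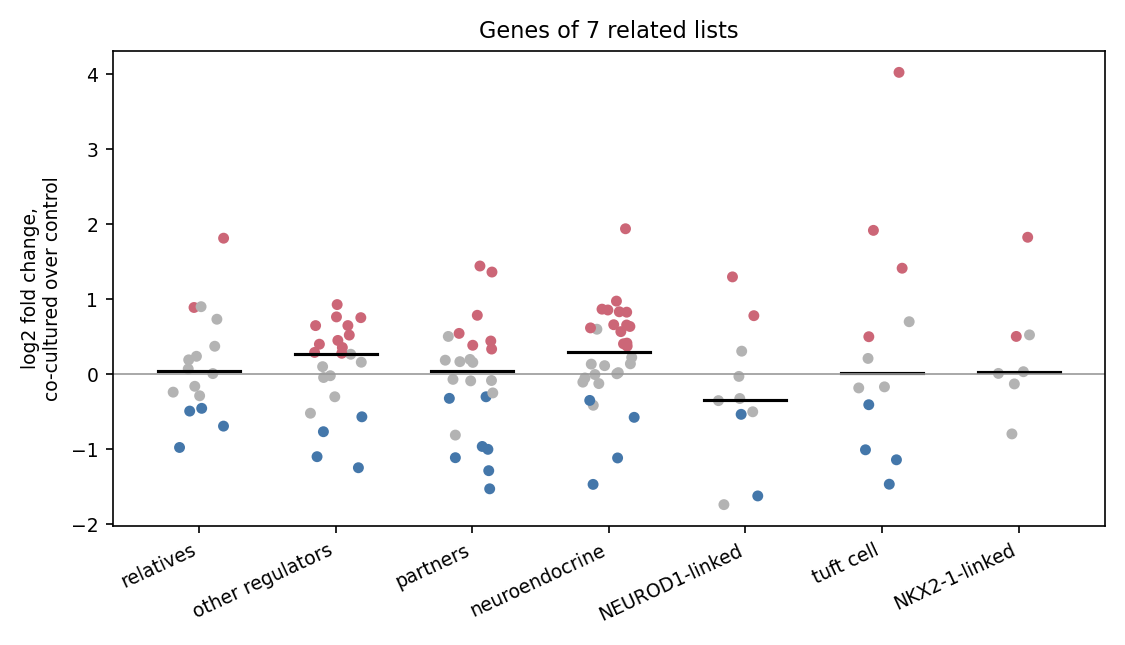
Log2 fold change of each tested gene in 7 related lists, with genes higher at an adjusted p under 0.05 in red, lower in blue, others in gray, and the list median as a black line. The medians run from -0.34 for the NEUROD1-linked genes to 0.30 for the neuroendocrine markers, and the highest point is CHAT, whose fitted value has control libraries at or under 3 counts.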

How the data were processed

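RNA-Seq was done on 5 libraries of rRNA-depleted RNA made with a directional kit. The authors deposited raw counts per gene for each library as written by the STAR aligner, with a column for each strand setting, and the submitters' processing notes name STAR 2.6.1b, CASAVA 1.8, DESeq2 and GRCh38. Reads that map to several places were not counted. Of the reads of each library, 66.4% to 69.3% were assigned to no gene on the counted strand and were left out of library sizes. The authors' comparison table was used for gene symbols alone. Its fold changes and p-values, from a comparison of the groups, were not used.

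Counts of the directional strand were filtered with filterByExpr, normalized by TMM and compared with edgeR 4.0.16 in R 4.3.3 (quasi-likelihood test, Benjamini-Hochberg adjustment over the 20360 genes kept, two-sided), with 3 control against 2 co-cultured libraries. CPM values use the TMM scaling, and standard errors are the log2 fold change over the square root of the F statistic. Exon lengths and positions came from GENCODE release 29, which covers 58780 of the 64837 entries. The steps were tested on simulated data. No 2 libraries of a group were alike within counting error (chi-square per degree of freedom of 4.19 to 16.1). Shares and floors cover counting error only.

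The members and lists were chosen with earlier results of these data known. Named are all members, YAP1 and ATOH1, all relatives that passed the filter, the 3 genes with the smallest p in each direction among those called in each list, the transcripts at the members' loci, and for each member the 2 protein-coding genes with the nearest profile. One gene that this rule names is not reported here. CHGA, CHGB, VWF and genes at 0 or few counts were named after their values were seen. The alternatives tried were DESeq2 1.42.0, other scaling (median ratio, or RLE, and upper quartile), a looser and a stricter filter (1 count in any or 10 in every library), the replicate number as a block, the omission of 1 library at a time, and unstranded counts. Promoters came from RefSeq (GRCh38.p14). Plots were drawn with matplotlib 3.10.9.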

Additional observations from a re-analysis of the deposited data

How the results depend on the processing

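All 9 members entered the fit under all 12 alternatives, and 3 had an absolute log2 fold change above 1 in each except without co-cultured replicate 1, where ISL1 was at -0.99 and the number was 2. Over all genes, 6809 were called, and leaving out each library in turn this ran from 2734 (without co-cultured replicate 1) to 9897 (without control replicate 1), with 3023 without co-cultured replicate 2. Those higher ran from 1749 to 5295 and those lower from 985 to 4602. For the related lists the 67 calls ran from 36 to 83 (43 without co-cultured replicate 2), the 42 higher ones from 24 to 52 and the 25 lower ones from 12 to 31, the lowest without co-cultured replicate 1 in each case. Leaving out a co-cultured library leaves 1 in that group, which is then assumed to vary like control. NKX2-1 was at 0.11 under upper-quartile scaling and 0.25 unstranded. Under upper-quartile normalization 43.9% of the calls were higher, against 55.1% under TMM, and the median log2 fold change of all genes was -0.11. SSTR2 turned to -0.42 with unstranded counts. The labels of both groups share replicate numbers, and whether libraries of the same number were paired is not known. Deviations from the group means correlated at -0.114 between replicates 1 and at -0.0670 between replicates 2. With 2 co-cultured libraries the deviations of one mirror those of the other, so these values cannot decide on pairing. With a replicate block 4824 genes and 54 genes of the related lists were called, and the log2 fold changes of LMX1A, SOX2 and ISL1 were 3.05, 1.40 and -1.005. Over 59 named genes and transcripts that were tested, 638 values under the alternatives kept their side of the threshold, 60 lost the call, 2 gained one (POU2F1) and 1 called value reversed (SSTR2). Of the 638, 14 turned sign, for NKX2-5, LMX1B, YAP1 and AL132857.2, none of them called. AVIL was at -0.77 with unstranded counts. The depth limits NEUROD1 and POU2F3, with at most 35 counts per library.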

Other observations

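For each member, the protein-coding genes with the nearest profile over the 5 libraries were found by the Euclidean distance between log2 CPM values centred on their mean, among genes with a mean log2 CPM within 1 of the member's. The 5 libraries form 2 groups, so nearness largely carries the difference between the groups, and it is given as a description. ESRRB and CXCL3 were nearest to LMX1A (distances of 0.572 and 0.640 among 2105 candidates), with log2 fold changes of 2.49 and 2.55 against 2.95. CSTA and IL32 were nearest to SOX2 (0.230 and 0.361 among 1663), SMAD9 and EIF3L to ISL1 (0.138 and 0.166 among 3894), and STMN1 and MAT2A to PROX1 (0.133 and 0.141 among 724). For ONECUT2 these were DYRK2 and BBX (0.156 and 0.191 among 1657), for NKX2-1 C5orf22 and UTP23 (0.0290 and 0.0333 among 4225), for INSM1 HIST1H3B and CALM2 (0.152 and 0.153 among 471), for POU2F3 LINC02203 and AC090517.4 (0.118 and 0.169 among 1613, both classed as protein-coding in GENCODE release 29) and for NEUROD1 MEIOB and SVOPL (0.0644 and 0.0933 among 1633). LMX1A had the farthest nearest gene of the 9 members.

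Reads on the opposite strand of PROX1 numbered 309, 225 and 279 in control against 74 and 65 after co-culture, 2.66% and 1.16% of the reads at the gene. The co-cultured libraries were below all control libraries.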
